A study of Mus musculus with 138 samples.

Results

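The 10 genes described here act on phosphate, pyrophosphate and the first mineral of bone: Alpl, Phospho1, Enpp1, Ank, Phex, Fam20c, Slc20a2, Smpd3, Slc13a5 and Ifitm5. They were taken by name from the 55487 genes of the count files and all 10 passed the filter on low counts. Their transcripts were measured in wild-type C57BL/6J mouse embryos of ages E16.5 and E18.5 (days of embryonic development), in sections of the skull vault from which the suture mesenchyme (SM) and the osteogenic fronts (OF) on either side had been taken by laser capture. The frontal suture gave SM and a frontal front (FR), the sagittal suture SM and a parietal front (PA), the lambdoid suture SM, a parietal front and an interparietal front (IP), and the coronal suture SM, FR and PA, with 5 embryos for each of the 20 groups of suture, age and region and 40 embryos in all. No embryo carried a mutation or received a treatment. Beside these 100 libraries stand 18 second coronal libraries, 16 libraries of complete sutures at E18.5 and 4 single-cell libraries of the coronal suture, which are given as values. The second coronal libraries were also fitted in place of the first of the same embryo and region as an alternative. Coronal libraries without a second one stayed in that fit. It therefore mixes both sets within each coronal group and, at E18.5, within some embryos. How the border between SM and front was drawn during capture is not given in the sources used here, whereas the study counted dividing cells with the front defined by ALPL stain, so that a difference in Alpl between the regions may partly restate the definition of the front.

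Bone mineral forms when inorganic phosphate and calcium precipitate in and on the collagen matrix laid down by osteoblasts, starting inside vesicles shed from their membrane. Inorganic pyrophosphate blocks this step, and the balance is set by enzymes that make pyrophosphate, a protein that lets it or its precursor leave the cell, and a phosphatase that splits it into phosphate. Loss of Alpl, Phex or Phospho1 leaves bone poorly mineralized, and loss of Enpp1 or Ank lets mineral form in soft tissue. Cranial sutures stay unmineralized between mineralizing bone edges, which makes SM against OF the comparison that bears on these genes.

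Promoter windows were read from RefSeq for the mouse genome GRCm38.p6 (mm10), from 250 bases before to 50 bases after a transcription start, and 8 of the 10 genes had one. No window was held for Slc20a2 and Smpd3. Printed here 5′ to 3′ on the strand of the gene are windows of 3 genes whose fronts lay above SM throughout (Alpl, Phex, Ifitm5) and of Enpp1, whose order of SM and front differed between sutures. Capitals mark matches on either strand to 5 motifs, namely the RUNX core TGTGGT and its variant TGCGGT, the TATA element TATAAA, the GC box motif GGGCGG and the CCAAT element, and overlapping matches run together. Alpl, the upstream of its 2 windows (chr4:137796335-137796634, minus strand), held 3 GC boxes at a GC content of 70.0%, Phex (chrX:157415237-157415536, minus strand) held none of the motifs at 38.7% GC, Ifitm5 (chr7:140950194-140950493, minus strand) held 2 GC boxes at 57.7% GC, and Enpp1 (chr10:24712110-24712409, minus strand) held 1 TGTGGT and 1 GC box at 61.7% GC.
Alpl: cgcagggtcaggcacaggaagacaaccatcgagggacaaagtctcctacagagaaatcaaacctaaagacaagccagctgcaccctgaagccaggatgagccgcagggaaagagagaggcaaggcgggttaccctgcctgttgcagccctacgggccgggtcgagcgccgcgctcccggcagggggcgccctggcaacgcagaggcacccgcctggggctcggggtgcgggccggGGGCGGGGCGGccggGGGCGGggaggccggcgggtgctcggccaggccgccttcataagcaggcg
Phex: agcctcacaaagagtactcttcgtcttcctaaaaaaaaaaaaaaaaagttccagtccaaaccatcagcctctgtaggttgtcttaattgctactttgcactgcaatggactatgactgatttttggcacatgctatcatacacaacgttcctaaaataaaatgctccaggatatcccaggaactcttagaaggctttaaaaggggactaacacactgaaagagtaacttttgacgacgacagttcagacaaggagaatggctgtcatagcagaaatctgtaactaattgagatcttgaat
Ifitm5: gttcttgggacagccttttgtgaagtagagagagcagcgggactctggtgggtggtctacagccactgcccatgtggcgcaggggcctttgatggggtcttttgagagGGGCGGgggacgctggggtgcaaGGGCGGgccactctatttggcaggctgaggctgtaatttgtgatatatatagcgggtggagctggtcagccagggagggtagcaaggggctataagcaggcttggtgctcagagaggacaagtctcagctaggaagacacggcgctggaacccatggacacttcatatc
Enpp1: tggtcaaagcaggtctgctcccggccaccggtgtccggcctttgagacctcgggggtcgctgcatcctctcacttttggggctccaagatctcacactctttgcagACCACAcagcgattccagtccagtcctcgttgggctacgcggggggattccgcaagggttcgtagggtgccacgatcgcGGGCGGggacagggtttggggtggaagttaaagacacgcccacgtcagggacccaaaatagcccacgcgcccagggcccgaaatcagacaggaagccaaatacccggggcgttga

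Among all 32851 windows of that length, 35.7% held GGGCGG, 37.4% CCAAT, 16.8% TGTGGT, 13.6% TATAAA and 6.45% TGCGGT, at a median GC content of 52.7%. A GC box stood in a window of 7 of the 8 genes with one, all but Phex, and a TGCGGT in 2, Phospho1 and Slc13a5. Of the windows printed, only that of Enpp1 held a RUNX core. These matches describe letters and were not tested against the expression values.

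The 100 first libraries held 7305627 to 34518477 counts, with the coronal libraries the deepest (20133332 to 34518477) and the lambdoid the shallowest (7305627 to 11294521). Mitochondrial genes took 12.8% to 52.4% of the counts, and 6 libraries were above 40%, 5 of them coronal at E16.5. Of 18 osteoblast markers, 17 were higher in OF at each age averaged over the sutures, and of 9 suture mesenchyme markers 8 were lower. Both marker lists were drawn up when earlier results of these data were already known. These counts are therefore not an independent check of which tissue was captured. Levels are given as CPM, counts scaled to library size by TMM (trimmed mean of M values). The summed osteoblast markers overlapped between the regions, from 16200 to 63500 CPM in the 60 fronts and from 8020 to 37600 CPM in the 40 SM libraries. In the sagittal suture at E16.5 their median sum was no higher in PA (27600 CPM) than in SM (28500 CPM), and in the frontal at E18.5 the medians were 27900 and 27200 CPM. A sum of CPM, here and below, is weighted to the most abundant genes of its list. Equal sums therefore do not show equal shares of osteoblasts. Averaged over the sutures, the median log2 difference of the 18 markers between OF and SM was 3.01 at E16.5 and 3.05 at E18.5. In these bulk samples, fewer cells of a type and less RNA per cell cannot be told apart. Each embryo gave 1 suture at 1 age. Some litter codes are shared by embryos of different sutures (frontal and coronal at each age, lambdoid and sagittal at E18.5) and none by embryos of different ages. Sutures also differed in depth, as given above. Labels of the complete-suture controls carry the codes C, IF, L and S, the letters also used for the sutures, so library set may go with suture. The parts of litter, depth and library set in the differences between sutures were not tested. Some embryos of a group are littermates and are counted as separate replicates. In the main fits p-values and SEs rest on 1 estimate of the spread between embryos per gene, shared by all groups. They do not measure the spread of the 5 embryos of a single comparison.

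Levels between genes were compared as TPM, which scale the counts by exon length as well as by library size. In the fronts the median level ran from 412 TPM for Ifitm5, the osteoblast membrane protein BRIL, through 179 TPM for Smpd3, neutral sphingomyelinase 2, and 174 TPM for Alpl, tissue-nonspecific alkaline phosphatase, to 103 TPM for Slc13a5, a sodium-citrate cotransporter. A second tier held Phex, an endopeptidase of bone cells, at a median of 16.9 TPM, Ank, the pyrophosphate exporter, at 10.1 TPM, Enpp1, which makes pyrophosphate from ATP, at 9.14 TPM, and Slc20a2, the sodium-phosphate cotransporter PiT2, at 7.13 TPM. Lowest were Phospho1, the matrix-vesicle phosphatase of phosphocholine and phosphoethanolamine, at 2.40 TPM and Fam20c, the kinase of the secretory pathway, at 2.21 TPM. In SM the order was another: Alpl came first at a median of 16 TPM, followed by Ifitm5 at 11.6 TPM, Slc20a2 at 8.15 TPM and Ank at 7.30 TPM, while Phospho1 had no count in 21 of the 40 SM libraries. These medians pool all sutures and ages, and single SM groups can differ from this order. Enpp1, at a median of 3.5 TPM in SM, reached 169 TPM there, above the highest SM value of Alpl (115 TPM). The level of Phospho1 is understated, because only 211 of its 2029 exon bases lie outside exons of Zfp652 and Abi3 and read pairs on exons of 2 genes were not counted. Its place among the lowest of the 10 is therefore not certain.

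**Figure D1:**
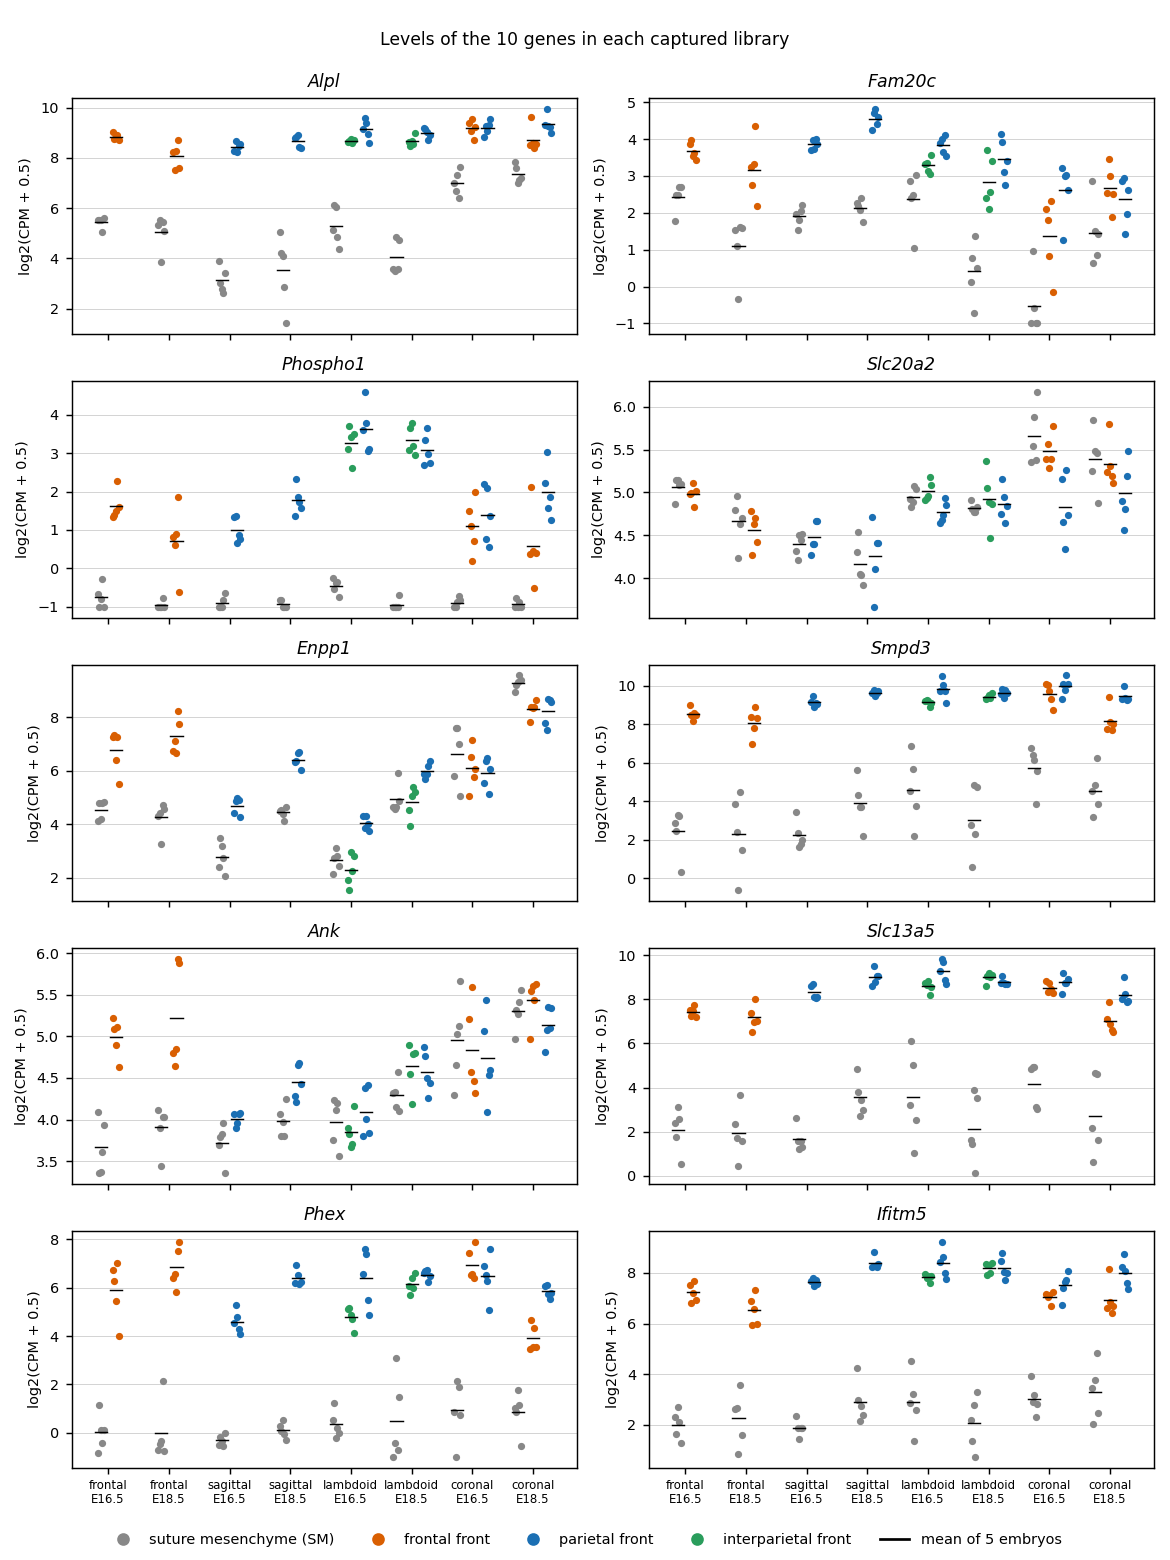
Level of each gene, log2 of TMM-scaled CPM plus 0.5, in the 100 captured libraries by suture and age, with 1 point per embryo and a bar at the mean of 5; the vertical axis differs between genes. For Alpl, Phospho1, Phex, Smpd3, Slc13a5 and Ifitm5 every front library lies above every SM library of its suture and age, whereas Slc20a2 and Ank overlap in most groups and Enpp1 in coronal SM at E18.5 lies above all its other groups.

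SM and OF of the same embryo were compared with edgeR's quasi-likelihood test, with the embryo as a block and Benjamini-Hochberg adjustment over 19768 genes. Averaged over the 4 sutures, 9 of the 10 genes were higher in OF at E16.5, where 23.9% of all genes tested were, and the same 9 were higher at E18.5, where 22.2% were. None of the 10 was lower at either age, against 23.6% and 21.2% of all genes, and at an unadjusted p under 0.05 none was lower either. Slc20a2 was the exception, with log2 differences of -0.14 ± 0.08 (SE) at E16.5 and -0.03 ± 0.09 at E18.5, and it was called lower at E16.5 by DESeq2 (adjusted p = 0.0215), with median-ratio size factors (0.0278) and without TMM scaling (0.019). Phex stood at 6.19 ± 0.21 and 5.91 ± 0.19 on the log2 scale at E16.5 and E18.5, Smpd3 at 5.32 ± 0.24 and 5.16 ± 0.24, Slc13a5 at 5.30 ± 0.22 and 5.23 ± 0.23, Ifitm5 at 5.16 ± 0.18 and 4.89 ± 0.18, and Phospho1 at 5.18 ± 0.38 and 6.57 ± 0.52. Alpl followed at 3.62 ± 0.12 and 3.57 ± 0.12, then Fam20c at 1.99 ± 0.21 and 2.28 ± 0.23, Enpp1 at 1.02 ± 0.14 and 1.13 ± 0.12, and Ank at 0.37 ± 0.11 and 0.55 ± 0.11, each beside medians over all genes of -0.036 and -0.031. The adjusted p of Ank was 0.00432 at E16.5 and 3.29e-05 at E18.5, and its E16.5 call was lost without TMM scaling (0.0604) and without replicate 1 (0.0655) or 2 (0.051). Each SE given here was derived from the log2 difference and the F statistic of its test. Where SM counts are near 0, such SEs cannot be combined between comparisons. The change of the Phospho1 difference between the ages was 1.39 ± 1.28.

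Phospho1 reached at most 0.344 CPM in SM and so passed the filter of 1 CPM only through the fronts. The counts given here of higher calls, of groups without overlap and of pairs higher in OF include it without being support for it. Over the 12 comparisons of a front with its own SM, 90 of the 120 tests of these genes called OF higher and 5 called it lower, against 12% and 10.9% of all tests. Alpl, Phospho1, Phex, Smpd3, Slc13a5 and Ifitm5 were higher in all 12, Fam20c in 10, Enpp1 in 6 and Ank in 2, and Slc20a2 in none. The lower calls fell on Enpp1 in 4 comparisons and on Slc20a2 in 1, all of them coronal. In all 12 comparisons the front libraries of the 6 genes lay above every SM library, and OF exceeded SM in 60 of 60 pairs of a front with the SM of its embryo, while 0.592% of all genes tested (117 genes) shared this separation. The pairs come from 40 embryos, since coronal and lambdoid embryos gave 2 fronts that share 1 SM library. Of the other genes, OF exceeded SM in 58 of 60 pairs for Fam20c, 44 for Ank, 35 for Enpp1 and 26 for Slc20a2.

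**Figure D2:**
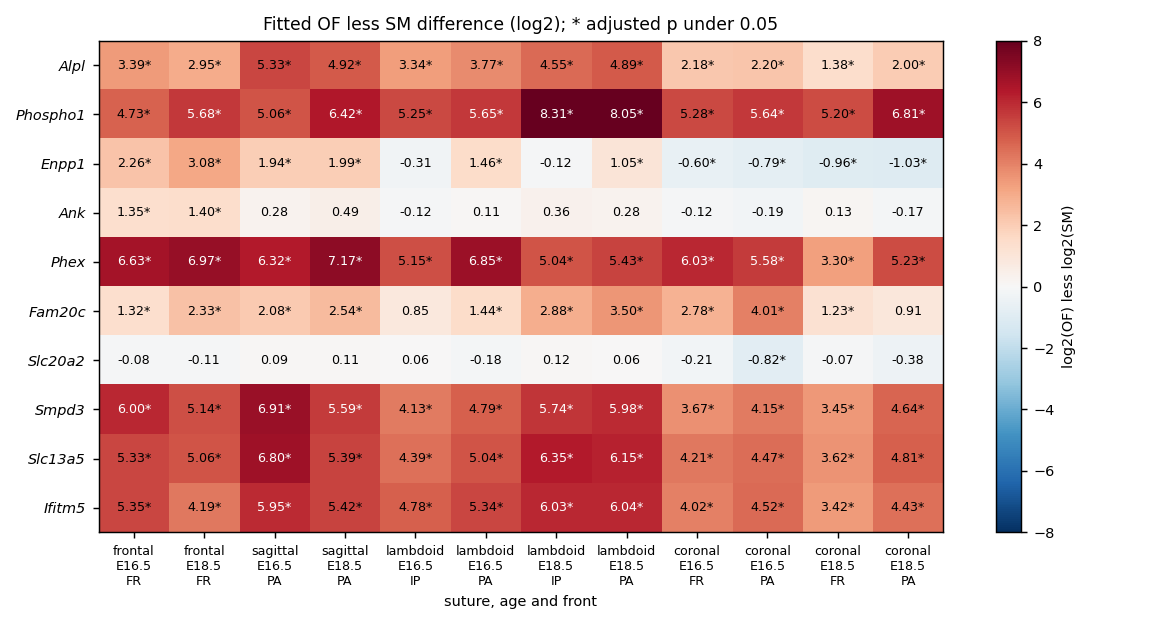
Fitted log2 difference of OF less SM for each gene (rows) in each suture, age and front (columns), red where OF was higher and blue where SM was higher, with an asterisk at an adjusted p under 0.05. Rows of Phospho1, Phex, Smpd3, Slc13a5 and Ifitm5 are red throughout, Alpl is palest in the coronal columns, and Enpp1 runs from 3.08 in the frontal suture to -1.03 in the coronal.

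Alpl (ENSMUSG00000028766.10, chr4:137741733-137796384) lay between 182 and 992 CPM in the 60 fronts and between 2.16 and 225 CPM in SM, and what varied most was SM. Sagittal SM at E16.5 held 14.2, 7.61, 6.32, 5.72 and 10.3 CPM in the 5 embryos, against 309, 412, 303, 355 and 371 CPM in the parietal front, a log2 difference of 5.33 ± 0.28 (adjusted p = 2.25e-23). Coronal SM at E18.5 held 225, 194, 126, 140 and 147 CPM, against 361, 788, 380, 339 and 370 CPM in the frontal front, a difference of 1.38 ± 0.21 (adjusted p = 3.2e-06). The lowest of these front libraries was above the highest SM library, and the log2 difference was the smallest of the 12. Group means of the 12 fronts ran from 281 to 672 CPM and those of the 8 SM groups from 8.82 to 166 CPM, and the difference from SM varied between sutures at E16.5 (adjusted p = 8.45e-10) and at E18.5 (3.47e-13).

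Phospho1 (ENSMUSG00000050860.6, chr11:95824499-95832140) had 0.156 to 23.6 CPM in the front libraries and at most 4 counts in any SM library. Its fitted log2 differences of 4.73 to 8.31 rest on those near-zero SM counts, so ratios of summed counts scaled for depth are given with exact 95% intervals that cover counting error only. In the frontal suture at E16.5, FR held 31, 38, 42, 69 and 44 counts and SM 2, 0, 1, 4 and 0, a ratio of 29.9 (14.3 to 75.3). Lambdoid IP at E18.5 held 70, 108, 128, 92 and 65 counts against 1 count in all 5 SM libraries, a ratio of 428 (76.4 to 16900). Among the fronts the lambdoid suture stood highest, at 5.64 to 23.6 CPM at both ages and on both sides, and the fronts of the other sutures lay between 0.156 and 7.67 CPM. Across sutures the fitted OF less SM difference did not pass the test, with adjusted p of 0.993 and 0.973 at E16.5 and E18.5. Of its 12 calls, that in coronal FR at E16.5 was lost when the suture and age were fitted alone (0.0782) and that in frontal FR at E18.5 without replicate 4 (0.0952).

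Smpd3, whose product makes ceramide and whose loss in mice leaves poorly mineralized bone, lies at chr8:106252548-106337988 (ENSMUSG00000031906.9). It reached 126 to 1480 CPM in the fronts and 0.146 to 114 CPM in SM. Sagittal SM at E16.5 held 10.4, 4.63, 2.59, 2.96 and 3.45 CPM against 565, 701, 467, 544 and 536 CPM in its front. Lambdoid SM at E16.5 held 22.6, 114, 50.2, 4.1 and 13 CPM, below the 475 to 602 CPM of its interparietal front and the 551 to 1460 CPM of its parietal front. The same SM library of replicate 2 was also the highest of its group for Slc13a5, Ifitm5, Alpl and Phex. The difference of Smpd3 ran from 3.45 ± 0.44 (coronal FR, E18.5) to 6.91 ± 0.55 (sagittal PA, E16.5) and varied between sutures at E16.5 (adjusted p = 0.00117), while at E18.5 this test gave 0.0945. The E16.5 value was not called by limma-voom (0.102).

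Slc13a5 (ENSMUSG00000020805.14, chr11:72241989-72267222) carries citrate, which bone mineral holds in quantity, into the cell. Its levels were 91.6 to 913 CPM in OF and 0.58 to 67.7 CPM in SM. Sagittal PA at E16.5 gave 386, 413, 270, 265 and 274 CPM, and SM gave 5.71, 2.47, 1.84, 2.52 and 1.97 CPM, a log2 difference of 6.80 ± 0.51. Coronal FR at E18.5 gave 135, 237, 116, 97.1 and 92.3 CPM and SM 3.98, 1.07, 24.6, 23.8 and 2.54 CPM, the smallest difference at 3.62 ± 0.41. Slc13a5 thus separated the regions in both sutures, while in coronal SM replicates 3 and 4 lay well above the other embryos. The test between sutures gave an adjusted p of 0.026 at E16.5, lost in limma-voom (0.193) and without replicate 1 (0.064), 2 (0.0913) or 3 (0.138), and 0.113 at E18.5.

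Ifitm5, in which a change at the start of the protein causes a brittle bone disease with overgrown callus, lies at chr7:140948958-140950291 (ENSMUSG00000025489.5). Its fronts held 61.0 to 597 CPM and its SM 1.16 to 28.4 CPM. At lambdoid E18.5 the parietal front held 351, 441, 262, 213 and 257 CPM, the interparietal front 328, 240, 319, 258 and 339 CPM, and SM 3.99, 2.08, 6.32, 1.16 and 9.17 CPM. The 2 fronts differed from SM by 6.04 ± 0.41 and 6.03 ± 0.41 on the log2 scale, the largest differences of this gene. The difference varied between sutures at E18.5 (adjusted p = 0.00779), where coronal FR gave the smallest, 3.42 ± 0.32, and at E16.5 this test gave 0.092. The E18.5 value was not called by limma-voom (0.364) or without replicate 4 (0.312).

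Phex (ENSMUSG00000057457.11, chrX:157162075-157415312), mutated in X-linked hypophosphatemia, showed the largest averaged difference at E16.5. The fronts held 10.6 to 237 CPM and SM 0 to 7.93 CPM, with no count in 2 SM libraries. Summed counts of sagittal E18.5 were 6727 in PA and 44 in SM, a ratio of 149 (110 to 205), and those of coronal E18.5 FR were 1832 against 174, a ratio of 10.1 (8.63 to 11.8). Coronal FR at E18.5 was the lowest front, with 10.6, 25, 11.3, 19.6 and 11.3 CPM, whereas at E16.5 the same front held 173, 91.0, 93.9, 83.0 and 234 CPM, and the fall between the ages is taken up with the other age differences. The test of a difference between sutures gave an adjusted p of 0.885 at E16.5 and 0.00764 at E18.5, the latter lost in limma-voom (0.148), without the embryo block (0.116), with the second libraries (0.0988) and without replicate 3 (0.102).

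Enpp1 and Ank raise extracellular pyrophosphate, and the order of SM and front was not the same in every suture for Enpp1. Enpp1 (ENSMUSG00000037370.13, chr10:24637914-24712159) was higher in OF in the frontal suture, where FR at E18.5 held 106, 136, 100, 301 and 215 CPM against 19.4, 20.9, 9.04, 26 and 23 CPM in SM, a log2 difference of 3.08 ± 0.26 (adjusted p = 2.61e-14). The sagittal suture was alike in direction, at 1.94 ± 0.30 (E16.5) and 1.99 ± 0.24 (E18.5). In the coronal suture at E18.5 the order was turned: SM held 487, 592, 628, 752 and 672 CPM, FR 226, 328, 326, 335 and 398 CPM, and PA 221, 181, 403, 398 and 378 CPM. Neither front overlapped SM, and both fronts were lower than SM in all 5 embryos. The log2 differences were -0.96 ± 0.20 (adjusted p = 0.000773) and -1.03 ± 0.20 (7.61e-05), with all 14 alternatives on the same side of the threshold in both.

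At E16.5 the coronal levels of Enpp1 were lower and more spread, with 54.9, 191, 190, 128 and 32.8 CPM in SM, 32.6, 91.5, 140, 53.2 and 66.5 CPM in FR and 45.8, 82.0, 87.9, 34.1 and 65.9 CPM in PA. Here 4 of the 5 embryos had less Enpp1 in OF on both sides and replicate 5 had more on both sides, and the groups overlapped. The differences of -0.60 ± 0.22 for FR (adjusted p = 0.0243) and -0.79 ± 0.22 for PA (0.00289) were no longer called when coronal E16.5 was fitted by itself (0.312 and 0.108) or without replicate 4 (0.239 and 0.106), and that for FR also failed without replicate 1 (0.0753), 2 (0.166) or 3 (0.0604), without the embryo block (0.0716) and with the second libraries (0.0822). In the lambdoid suture the fronts parted, with PA above SM at both ages (1.46 ± 0.37 and 1.05 ± 0.26) and IP not called (-0.31 ± 0.46 and -0.12 ± 0.28), the E16.5 call in PA being lost in limma-voom (0.0791). Of the 10 genes, Enpp1 gave the smallest p for a difference between sutures at each age, 3.71e-11 and 1.14e-15 after adjustment, where 5 of the 10 genes passed at E16.5, against 17.7% of all genes, and 5 at E18.5, against 11.9%. Without replicate 2 the E18.5 count was 8 and without replicate 4 it was 3.

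**Figure D3:**
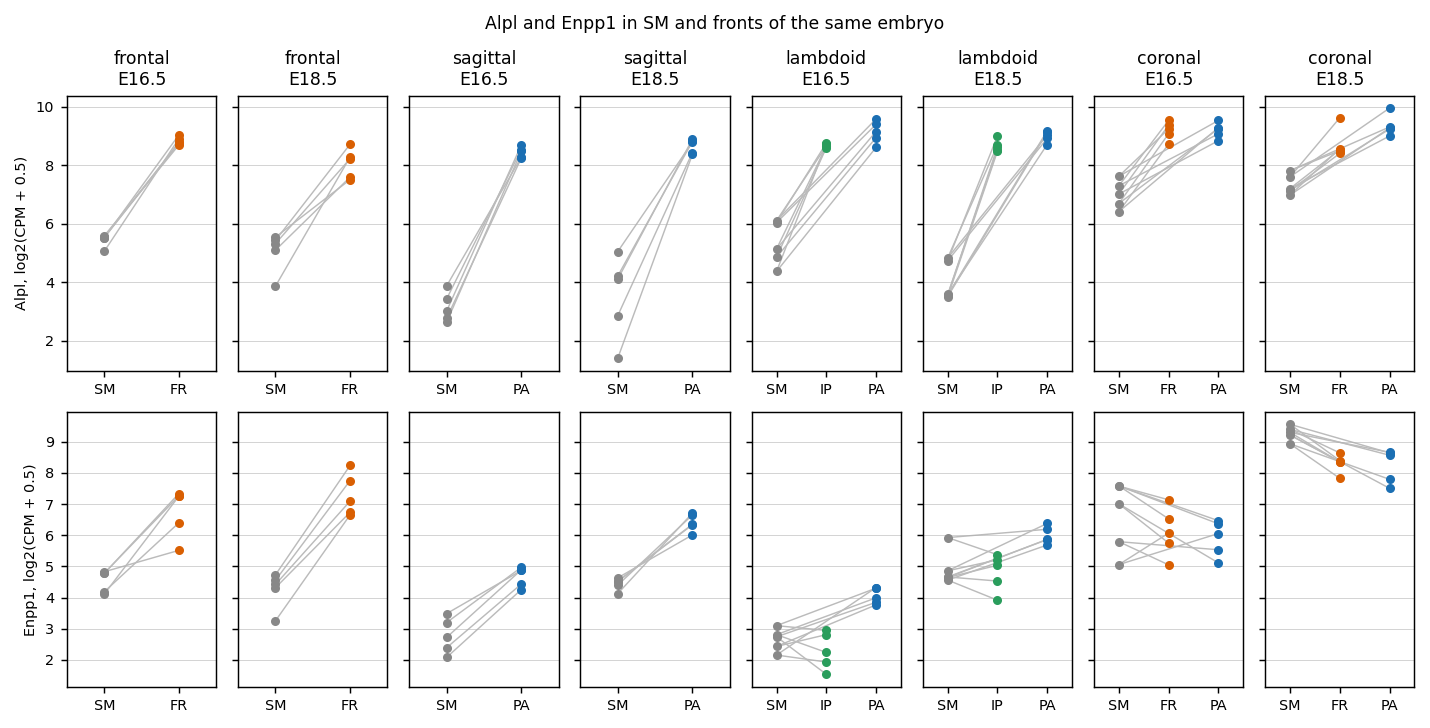
Alpl (upper row) and Enpp1 (lower row) in SM and fronts of each embryo, log2 of CPM plus 0.5, with 1 line per embryo and front. Alpl rises from SM to front in every line, while the lines of Enpp1 rise in the frontal and sagittal sutures, fall in the coronal suture at E18.5 and fall in 4 of 5 coronal embryos at E16.5.

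The 20 groups of Enpp1 spanned means of 4.74 to 626 CPM, with coronal SM at E18.5 first, the coronal fronts of that age next (322 and 316 CPM) and lambdoid IP at E16.5 last. Of the 19 steps between neighbours in this order, 15 were smaller than the larger SD of the pair. Ank (ENSMUSG00000022265.7, chr15:27466677-27594909), by contrast, held 9.72 to 60.6 CPM in all 100 libraries, and none of the 19 steps between its groups exceeded the larger SD. Only the frontal suture separated its regions: FR at E18.5 held 27.3, 24.6, 28.3, 60.6 and 58.6 CPM against 16.8, 14.4, 10.4, 15.9 and 15.9 CPM in SM, a log2 difference of 1.40 ± 0.25 (adjusted p = 2.68e-05), and at E16.5 the difference was 1.35 ± 0.23 (8.25e-06). In the other 10 comparisons Ank ranged from -0.19 to 0.49 and was not called. Of these, sagittal PA at E18.5 (0.49) was called when fitted alone (0.00889), without the libraries over 40% mitochondrial (0.0359) and with the second coronal libraries (0.0397), and coronal PA at E16.5 (-0.19) with the second libraries (-0.49, 0.0335). The test between sutures gave 0.000619 at E16.5 and 0.00455 at E18.5, the latter lost without replicate 4 (0.113).

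Fam20c (ENSMUSG00000025854.15, chr5:138754514-138810077), which phosphorylates secreted matrix proteins, was scarce. Fronts held 0.41 to 27.8 CPM and SM 0 to 7.70 CPM. Sagittal E16.5 held 12.5, 15.2, 12.8, 15.6 and 14 CPM in PA and 3.4, 2.41, 2.99, 3.65 and 4.16 CPM in SM, a clear separation with a log2 difference of 2.08 ± 0.36 (adjusted p = 3.33e-06), and at E18.5 the difference was 2.54 ± 0.33 (2.3e-09). Coronal SM at E16.5 held 0, 34, 4, 0 and 0 counts, so that its differences of 2.78 ± 0.72 (FR) and 4.01 ± 0.59 (PA) rest on few reads, 34 of 38 of them from replicate 2. Without replicate 2 they were 5.44 and 6.97, and with the second libraries 1.37 and 2.19. In lambdoid IP at E16.5 and coronal PA at E18.5 the adjusted p was 0.176 and 0.0795, with positive differences of 0.85 ± 0.40 and 0.91 ± 0.39. The first was called when fitted alone (0.0177), and the second with the second libraries (1.70, 0.000469), without replicate 1 (1.33, 0.0313) and without the libraries over 40% mitochondrial (0.89, 0.039). The call in coronal FR at E18.5 (1.23 ± 0.38, adjusted p = 0.0278) was lost in 8 of 14 alternatives, with adjusted p up to 0.273 without replicate 2. Those in frontal FR at E16.5, lambdoid PA at E16.5 and coronal FR at E16.5 were lost with DESeq2 (0.0763), without replicate 4 (0.0721) and when fitted alone (0.182).

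Slc20a2 (ENSMUSG00000037656.9, chr8:22476788-22569612) takes phosphate into most cell types. All 100 libraries held 12.2 to 71.6 CPM, and 11 of the 12 comparisons were not called, with differences from -0.38 to 0.12. The coronal PA at E16.5 held 35.3, 24.7, 19.8, 38.0 and 26.2 CPM against 40.3, 46.0, 58.5, 41.0 and 71.6 CPM in SM, a difference of -0.82 ± 0.17 (adjusted p = 5.92e-05). With the second coronal libraries it was -0.38 (adjusted p = 0.116), and fitted by itself -0.82 (0.0622). Coronal PA at E18.5 gave -0.38 ± 0.17 (0.0869) and was called lower in 7 of 14 alternatives, among them DESeq2 (0.0388), limma-voom (0.0413), no embryo block (0.0455), total counts (-0.68, 0.0031) and without replicate 5 (-0.70, 0.00226).

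Fronts of the same suture were then set against each other within embryos. In the coronal suture at E18.5, FR was lower than PA for 6 of the 10 genes and higher for none, where 11.8% of all genes were called in either direction. These were Phex at -1.92 ± 0.24 on the log2 scale (adjusted p = 2.58e-09), Phospho1 at -1.61 ± 0.34 (0.000831), Smpd3 at -1.19 ± 0.38 (0.0268), Slc13a5 at -1.19 ± 0.33 (0.0108), Ifitm5 at -1.01 ± 0.26 (0.00572) and Alpl at -0.62 ± 0.21 (0.0378). Phex held 10.6, 25, 11.3, 19.6 and 11.3 CPM in FR and 66.0, 68.0, 52.6, 46.1 and 54.9 CPM in PA, with no overlap. Slc13a5 held 259, 509, 299, 235 and 240 CPM in PA, so that its lowest library lay just below replicate 2 of FR. Smpd3 held 212, 673, 273, 208 and 254 CPM in FR and 637, 995, 658, 612 and 628 CPM in PA, and replicate 2 of FR again reached into the range of PA. All 6 genes were lower in FR in 5 of 5 embryos.

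Replicate 2 stood apart in this comparison, with the highest value of its group for all 6 genes in FR and in PA. Without replicate 2 the count was 5, without replicate 1 it was 3 and without replicate 3 it was 2, and DESeq2 and limma-voom called 2 each. DESeq2 called Phex and Phospho1, which in limma-voom had adjusted p of 0.0577 and 0.0756, and limma-voom called Alpl and Ifitm5, which in DESeq2 had 0.198 and 0.11. Without the embryo block 4 were called, and Alpl was lost in 10 and Smpd3 in 9 of 14 alternatives. The summed osteoblast markers moved with the result, with a lowest, median and highest sum of 16200, 18300 and 39000 CPM in FR and of 33600, 34100 and 61300 CPM in PA. The endothelial markers differed in the other direction, at 202, 358 and 423 CPM in FR and 74.4, 97.1 and 123 CPM in PA. The dura mater markers were at 53.1, 102 and 133 CPM and 26.3, 37.8 and 62.9 CPM. Suture mesenchyme markers summed to 2320, 2690 and 2920 CPM in FR and 1740, 2080 and 2340 CPM in PA, just overlapping, and ectocranial mesenchyme markers to medians of 387 and 829 CPM. The part of these cells in it was not tested. Enpp1 and Ank, at 0.07 ± 0.20 and 0.30 ± 0.19, and Slc20a2, at 0.30 ± 0.17, did not pass.

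**Figure D4:**
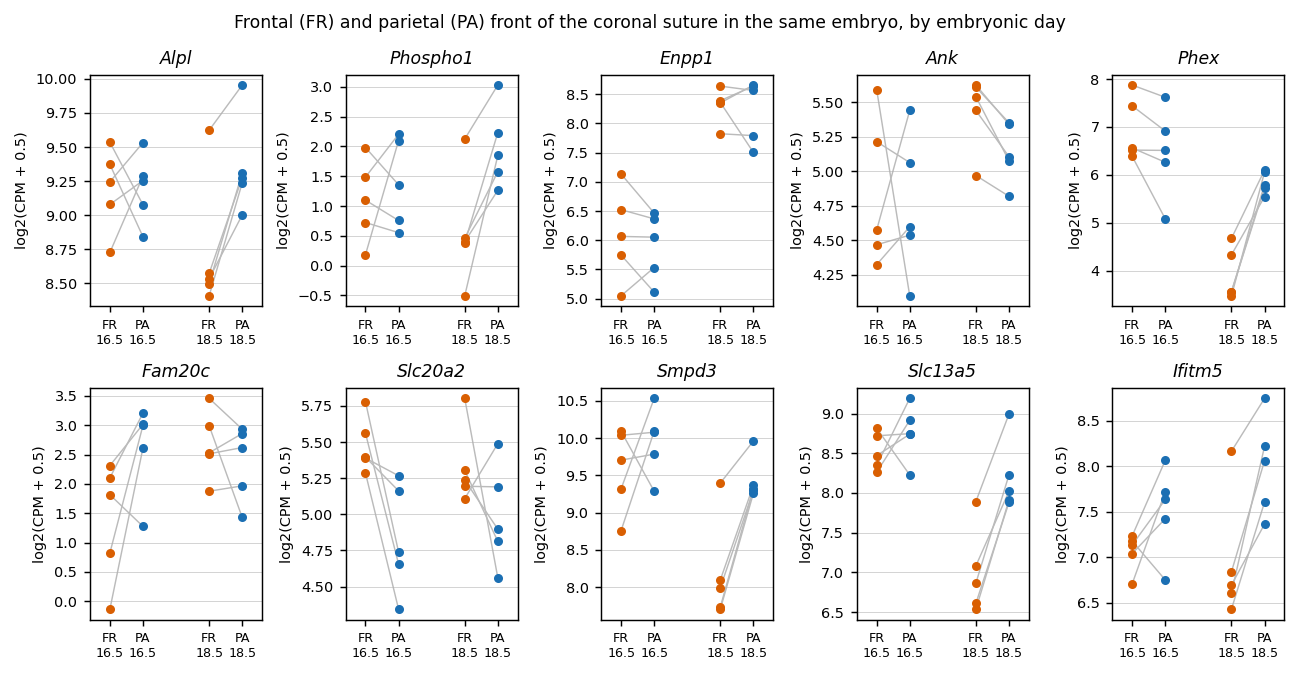
Frontal front (orange) and parietal front (blue) of the coronal suture in each embryo at E16.5 and E18.5, log2 of CPM plus 0.5, with 1 line per embryo and an axis of its own for each gene. At E18.5 every line of Alpl, Phospho1, Phex, Smpd3, Slc13a5 and Ifitm5 rises from FR to PA, while at E16.5 every line of Phex falls and those of the other 5 run in both directions.

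At E16.5 the same fronts gave 2 calls of 10, against 19% of all genes. Fam20c was lower in FR by a log2 difference of -1.22 ± 0.40 (adjusted p = 0.0244), with 3.80, 3.02, 1.27, 4.47 and 0.41 CPM in FR and 8.75, 1.92, 7.50, 7.60 and 5.63 CPM in PA, which overlapped. Slc20a2 was higher in FR by 0.62 ± 0.17 (adjusted p = 0.00679), with 41.6, 46.7, 38.5, 41.4 and 54.4 CPM against 35.3, 24.7, 19.8, 38.0 and 26.2 CPM, the lowest FR being just above the highest PA. Neither was called without the 6 libraries over 40% mitochondrial (adjusted p of 0.311 and 0.187), with the second libraries (0.134 and 0.761) or when coronal E16.5 was fitted by itself (0.666 and 0.572), and Fam20c also failed in limma-voom (0.515) and without replicate 1 (0.0528), 3 (0.151) or 5 (0.125). The summed macrophage markers did not overlap between these fronts, at 85.9 to 104 CPM in FR and 113 to 138 CPM in PA. Ectocranial mesenchyme markers had medians of 183 and 462 CPM and osteoblast markers of 46600 and 50200 CPM. The part of these markers in the calls was not tested.

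Lambdoid fronts at E16.5 gave 2 calls, against 1.18% of all genes. IP was lower than PA for Enpp1, at 3.32, 2.41, 7.21, 4.23 and 6.52 CPM against 19.5, 13.9, 19.2, 15.4 and 13.1 CPM (-1.77 ± 0.39, adjusted p = 0.00757). It was also lower for Phex, at 379, 339, 301, 294 and 192 counts against 989, 1643, 1636, 500 and 323 counts (-1.70 ± 0.25, adjusted p = 3.82e-06). The fronts did not overlap for Enpp1, whereas for Phex replicate 5 of PA lay within the range of IP. The summed periosteum markers did not overlap either, with a lowest, median and highest sum of 5740, 6030 and 6540 CPM in IP and 6590, 7410 and 8560 CPM in PA. The osteoblast markers had medians of 20900 and 31100 CPM, and the part of these markers in the result was not tested. limma-voom called neither gene (adjusted p of 0.388 and 0.684), DESeq2 did not call Phex (0.157), and Enpp1 was lost without the embryo block (0.068) and without replicate 1 (0.0754), 2 (0.0816) or 3 (0.0631). At E18.5 no gene of the 10 was called between these fronts, against 0.0405% of all genes, and 1 passed an unadjusted p under 0.05. That gene was Enpp1, again lower in IP, at 22.6, 14.6, 32.3, 41.0 and 36.5 CPM against 57.6, 51.0, 57.8, 72.5 and 82.6 CPM (-1.17 ± 0.26, adjusted p = 0.0609), and it was called by DESeq2 (0.00448), while limma-voom called none. Without replicate 5 it was also called (0.0227).

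Between the ages, Enpp1 was the gene of the 10 that moved most often. No litter held embryos of both ages, so age cannot be told apart from litter or day of collection here. It was higher at E18.5 in 3 of the 4 SM groups and 5 of the 6 fronts, by 1.64 to 2.63 on the log2 scale, and in the frontal suture it was not called in SM (-0.21 ± 0.36) or FR (0.53 ± 0.29). In lambdoid SM it went from 3.96, 6.19, 8.07, 6.52 and 4.90 CPM at E16.5 to 24.8, 23.1, 24.5, 60.2 and 28.5 CPM at E18.5, with no overlap (2.44 ± 0.44, adjusted p = 0.000142). The lambdoid and sagittal SM calls of Enpp1 did not pass in limma-voom, nor did those of the lambdoid fronts, and the sagittal SM call was also lost without replicate 1 (0.0665) or 5 (0.102). Markers moved between the ages in the same groups, without overlap in those given here. The median sum of the periosteum markers went from 7250 to 15000 CPM in coronal SM, from 7950 to 15100 CPM in coronal PA and from 6030 to 7810 CPM in lambdoid IP. That of the macrophage markers went from 104 to 275 CPM in coronal SM, and that of the osteoblast markers from 12800 to 17500 CPM in lambdoid SM and from 27600 to 48600 CPM in sagittal PA. Their part in the differences of Enpp1 was not tested.

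Of the 40 tests in SM, 5 were higher at E18.5 and 3 lower, against 5.08% and 5.81% of all tests, and of the 60 in fronts 8 were higher and 4 lower, against 5.90% and 5.47%. These shares are pooled over sutures that differed widely: in coronal FR and PA 6278 and 5504 of the 19768 genes were called, and 6 and 2 of the 10, whereas the other fronts had 56 to 955 genes called. Coronal SM had 7216 genes and 3 of the 10 called, and the other SM groups 342 to 558 genes. In the coronal libraries mitochondrial genes took 25.7% to 52.4% of the counts at E16.5 and 20.7% to 27.5% at E18.5. Beyond leaving out libraries over 40% mitochondrial, the part of this in the coronal age calls was not tested. Beside Enpp1, the higher calls in SM were Fam20c in the coronal suture (2.85 ± 0.66, adjusted p = 0.000323) and Slc13a5 in the sagittal (2.18 ± 0.62, 0.0423), and the lower ones Alpl (-1.29 ± 0.32, 0.00958) and Fam20c (-2.41 ± 0.66, 0.0244) in the lambdoid and Smpd3 in the coronal (-1.13 ± 0.43, 0.0297). Slc13a5 was lost in 8 of 13 alternatives, every left-out replicate among them, Smpd3 in 9, Fam20c in the lambdoid in 5 and Alpl in 3. Without replicate 1 the lower calls in SM numbered 0, and without replicate 3 or 5 they numbered 1. Higher calls in SM numbered 3 without replicate 1 or 5. In the fronts Phex rose in sagittal PA (1.81 ± 0.34, 0.000131) and fell in both coronal fronts, and Ank (0.55 ± 0.19, 0.022) and Fam20c (1.24 ± 0.38, 0.00782) rose in coronal FR, where Slc13a5 (-1.45 ± 0.36, 0.00108) and Smpd3 (-1.32 ± 0.39, 0.00682) fell.

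Phex in coronal FR gave the largest fall, from 173, 91.0, 93.9, 83.0 and 234 CPM to 10.6, 25, 11.3, 19.6 and 11.3 CPM (-3.11 ± 0.35, adjusted p = 5.21e-12), and all 13 alternatives called it, at -3.46 to -2.61. Between the same groups the median sum of the osteoblast markers went from 46600 to 18300 CPM, that of the periosteum markers from 7790 to 12700 CPM and that of the pericyte markers from 305 to 1120 CPM, the latter 2 without overlap. Sums of hypodermis, macrophage and osteoclast markers were also higher at E18.5 without overlap. Their part in the falls of Phex, Slc13a5 and Smpd3 in coronal FR was not tested. In coronal PA its change was -0.84 ± 0.31 (0.0343), which did not pass in 8 of 13 alternatives, among them that without the libraries over 40% mitochondrial (0.219). Without replicate 1 the lower calls in fronts numbered 2, those of Phex and Slc13a5 in coronal FR. Ank in coronal FR was lost in 6 of 13 alternatives, among them DESeq2 (0.0637) and without replicate 2 (0.118), 4 (0.143) or 5 (0.181), Smpd3 there with the second libraries (-0.82, 0.218) and without replicate 1 (0.0573), and Phex in sagittal PA with DESeq2 (0.132). Fam20c in coronal SM and FR depended on which libraries were used: with the second libraries the change in SM was 0.25 (adjusted p = 0.795) and that in FR -0.02 (0.979). Fitted alone, neither was called (0.0528 in SM and 0.163 in FR), and that in FR was also lost without replicate 3 (0.0806) or 5 (0.0625). The OF less SM difference itself differed between the ages for none of the 10 genes when averaged, against 0.926% of all genes, with none at an unadjusted p under 0.05 and none by DESeq2 or limma-voom. In single sutures 1 of 40 tests was called, against 3.46% of all, namely Fam20c in the coronal suture (-2.33 ± 0.78, adjusted p = 0.034), and it was not called with the second libraries (-0.35, 0.78) or without replicate 1 (-1.34, 0.343), 3 (0.0952), 4 (0.12) or 5 (0.0669).

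How alike the genes were across embryos was described by the Pearson correlation of their OF less SM log2 differences over the 60 front libraries, which share SM libraries, depth and suture, and no p is given. Slc13a5, Ifitm5 and Smpd3 formed the closest trio, with r of 0.89 for Slc13a5 and Ifitm5, 0.86 for Smpd3 and Slc13a5 and 0.85 for Smpd3 and Ifitm5. Alpl followed Ifitm5 at 0.71 and Smpd3 at 0.69, Enpp1 followed Ank at 0.60 and Alpl at 0.49, and the other pairs of Phospho1, Phex, Fam20c and Slc20a2 with the rest did not exceed 0.46. Over all genes tested, Alpl was most like Npnt (r = 0.911), Ano1 (0.869) and Sp7 (0.834), the last a transcription factor of osteoblasts. Smpd3 was most like Tcf7 (0.899), Ibsp (0.889), which encodes bone sialoprotein, and Panx3 (0.864), and Ibsp was also the second for Slc13a5 (0.862) and the third for Ifitm5 (0.850). Enpp1 was most like Chrdl1 (0.842), Fstl4 (0.802) and Hhip (0.778), an antagonist of hedgehog ligands.

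Phex was most like Carmil1 (0.675), Enpp6 (0.645), a choline phosphodiesterase, and Dmp1 (0.601), a matrix protein of late osteoblasts and osteocytes, while Ank was most like Bglap2 (0.712), Fam78b (0.667) and Bglap (0.629), the osteocalcin genes among them. The nearest genes of Phospho1 (Rpl10a 0.667, Krtcap2 0.666, P4ha1 0.661), Fam20c (Plec 0.660, Lmf2 0.650, Tuba1c 0.642) and Slc20a2 (Plxna2 0.725, Cntrob 0.654, Gm45073 0.596) lay no closer than r of 0.725.

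Other genes of these pathways were counted in the averaged comparison, to be read against the 23.9% of all genes higher and 23.6% lower in OF at E16.5 and the 22.2% and 21.2% at E18.5. Of 7 tested genes of phosphate transport and hormone signalling, 5 were higher in OF at each age and none lower, among them Dmp1 by 8.11 and 7.09 on the log2 scale at E16.5 and E18.5, Vdr, the vitamin D receptor, by 2.67 and 2.56, and Galnt3, which glycosylates FGF23, by 2.42 and 3.55. The list's median was 2.19 and 1.87. Of 12 pyrophosphate and nucleotide enzymes, 4 were higher and 3 lower at E16.5, while 3 were higher and 3 lower at E18.5, with Enpp6 at 4.33 and 6.04, Ppa1, a cytosolic pyrophosphatase, at 1.56 and 1.61, and Abcc6, which lets ATP leave the cell, at -1.96 and -2.60, and medians of -0.09 and -0.15. Mineral-binding matrix proteins had 7 of 9 tested higher and 1 lower at each age, led by Ibsp (6.97 and 6.80), Mepe (6.12 and 6.00) and Spp1 (3.01 and 4.41), with medians of 3.01 and 2.5.

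The counts of the remaining lists stand beside the same shares of all genes, 23.9% and 22.2% higher and 23.6% and 21.2% lower at E16.5 and E18.5. Of 11 lipid genes of matrix vesicles, 4 were higher at each age and 2 and 4 lower, with Sgms2, a sphingomyelin synthase, at 5.30 and 5.45, the annexin Anxa5 at 0.75 and 1.04 and Smpd1 at 0.69 and 0.71, and medians of -0.02 and -0.04. Of 7 tested genes of citrate transport and metabolism, 5 were higher at each age, with Slc25a1, the mitochondrial citrate carrier, at 0.91 and 1.09 and Acly at 0.76 and 0.65, and medians of 0.61 and 0.52. Osteoblast transcription factors had 6 of 7 higher and 1 lower at each age, led by Dlx3 at 6.07 and 5.71 and Sp7 at 3.25 and 3.35, with medians of 1.15 and 0.94. Of 4 other IFITM genes 3 and then 2 were higher, with Ifitm1 at 1.56 and 1.62 and Ifitm2 at 0.26 and 0.32 and medians of 0.25 and 0.27. Of 4 genes around the FAM20 kinases none was higher and 1 and then 2 were lower, Fjx1 at -0.42 and -0.61, with medians of 0.01 and -0.13.

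Markers of other cells also moved between the regions, to be read against the shares of all genes given above. All 10 proliferation markers were higher in OF at each age, with sums of 848 to 4190 CPM in OF and 372 to 4590 CPM in SM. Of 11 macrophage markers 3 and then 10 were lower, of 8 ectocranial mesenchyme markers 6 and 7, of 8 hypodermis markers 5 and 4, of 8 pericyte markers 5 at each age with 2 higher, of 6 periosteum markers 4 and 3 with 2 higher at each age, and of 11 chondrocyte markers tested 6 and 5 were lower and 3 higher at each age. Osteoclast markers had 1 of 6 tested higher at each age, at sums of 52.2 to 749 CPM in OF and 28 to 199 CPM in SM, and no neutrophil marker passed the filter. The part of these cells in the differences described here was not tested.

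Libraries of complete coronal sutures at E18.5 held 386 to 508 CPM of Alpl and 408 to 512 CPM of Enpp1, within the range of the captured coronal regions of that age. The labels give the 4 libraries of each complete suture the same replicate number, so they may be repeats of 1 sample. Phex, at 233 to 274 CPM, and Ank, at 168 to 173 CPM, were higher there than in any captured coronal library at E18.5, whose highest values were 68.0 CPM and 48.8 CPM. Among the complete sutures Enpp1 was highest in the coronal, with 245 to 275 CPM in the lambdoid, 119 to 139 CPM in the frontal and 83.4 to 103 CPM in the sagittal. The lambdoid values were above every captured lambdoid library at E18.5, whose highest value was 82.6 CPM. The second coronal libraries, 3 per group, held Enpp1 at 415 to 524 CPM in SM at E18.5 and 197 to 319 CPM in the fronts. At E16.5 they held more Ifitm5 (410 to 595 CPM in the fronts, against 104 to 267 CPM in the first libraries) and more Fam20c (3.57 to 7.35 CPM in SM, against 0 to 1.45 CPM).

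Single-cell libraries of the coronal suture, 2 per age, were clustered without the 10 genes. Of the E16.5 libraries 466 and 337 cells were kept, and 2412 and 1577 of the E18.5 ones, from several embryos each, and the 2 libraries of an age shared 1 and 5 barcodes. The ages differ in chemistry as well, depth differed between libraries (median of 2501, 2121, 18476 and 7131 unique molecular identifiers, UMIs, per cell), and no test was made. Matrix names of the older libraries hold an E16 code, and the age given here is that of the labels. Clusters were named only where at least 3 markers of a cell type stood among the leading 10 genes, came first among the markers there and outnumbered those of other types, a condition tightened after the clusters were seen, and several stayed unnamed. No doublet caller was run.

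At E18.5 the osteoblast-like cluster (116 and 405 cells, led by Ibsp and Bglap) held Ifitm5 at 2170 and 1750 CPM of its UMIs in libraries 1 and 2, Smpd3 at 643 and 1170 CPM, Phex at 170 and 173 CPM, Slc13a5 at 152 and 203 CPM, and Ank at 116 and 115 CPM. At E16.5 the cluster held 17 and 20 cells, with Ifitm5 at 1900 and 2290 CPM and Smpd3 at 1260 and 1520 CPM. Alpl spread more widely. At 365 and 546 CPM in the osteoblast-like cells of E18.5, it was as high in an unnamed cluster led by Gpx3, Cp and Mmp13, at 475 and 511 CPM, and stood at 295 and 287 CPM in one led by Tppp3, Dpt and Ptx4, which also held Tnn and Hhip among its leading genes. That last cluster held the most Enpp1, at 73.2 and 107 CPM, above the osteoblast-like cells at 68.2 and 45.4 CPM.

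Fam20c was at 51.1 and 50.4 CPM in osteoblast-like cells and at 65.4 and 62.4 CPM in chondrocyte-like cells at E18.5, the second of these from 4 UMIs, and at 24.9 CPM or less in every other cluster. At E16.5 it was at 77.7 and 40.4 CPM in osteoblast-like cells, from 4 and 3 UMIs, and at 62.7 CPM from 19 UMIs in the hypodermis-like cluster of library 1, which held 1 cell of library 2. Slc20a2 was low in osteoblast-like cells (5.36 and 3.26 CPM) and higher in the Gpx3 cluster (25.6 and 19.2 CPM). Phospho1 had no UMI at E16.5, 0 and 5 UMIs in the osteoblast-like cells at E18.5 and at most 2.09 CPM in any cluster, and no order between clusters was read from so few UMIs.

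UMIs of these genes were also found in macrophage-like cells at E18.5, and where they came from was not tested. With each cell thinned to 3500 UMIs, Ifitm5 was found in 99.1% and 94.3% of osteoblast-like cells in libraries 1 and 2 but also in 26.4% and 39.7% of macrophage-like cells, whose share without thinning was 78.7% and 74.0%. Smpd3 was found in 83.6% and 87.7% of osteoblast-like cells and in 3.97% and 4.11% of macrophage-like cells. Alpl was found in 66.4% and 78.3% of osteoblast-like cells, 76.8% and 74.1% of the Gpx3 cluster, 50.7% and 50.5% of the Tppp3 cluster and 10.5% and 15.1% of macrophage-like cells. Enpp1, in 17.1% and 31.9% of the Tppp3 cluster, stood against 4.69% and 6.85% of macrophage-like cells. At E16.5 the 63 and 34 macrophage-like cells, unthinned, held 147930 and 61828 UMIs in all and none of Alpl, Ifitm5 or Phex, which allows shares of cells with a UMI of up to 5.69% and 10.3% (exact Clopper-Pearson 95% limits), and 1 and 0 UMIs of Enpp1. These limits cover counting error only and take cells of a pooled library as independent. The cells had a median of 1991 UMIs, so their shares cannot be set against those of E18.5 at 3500 UMIs.

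**Figure D5:**
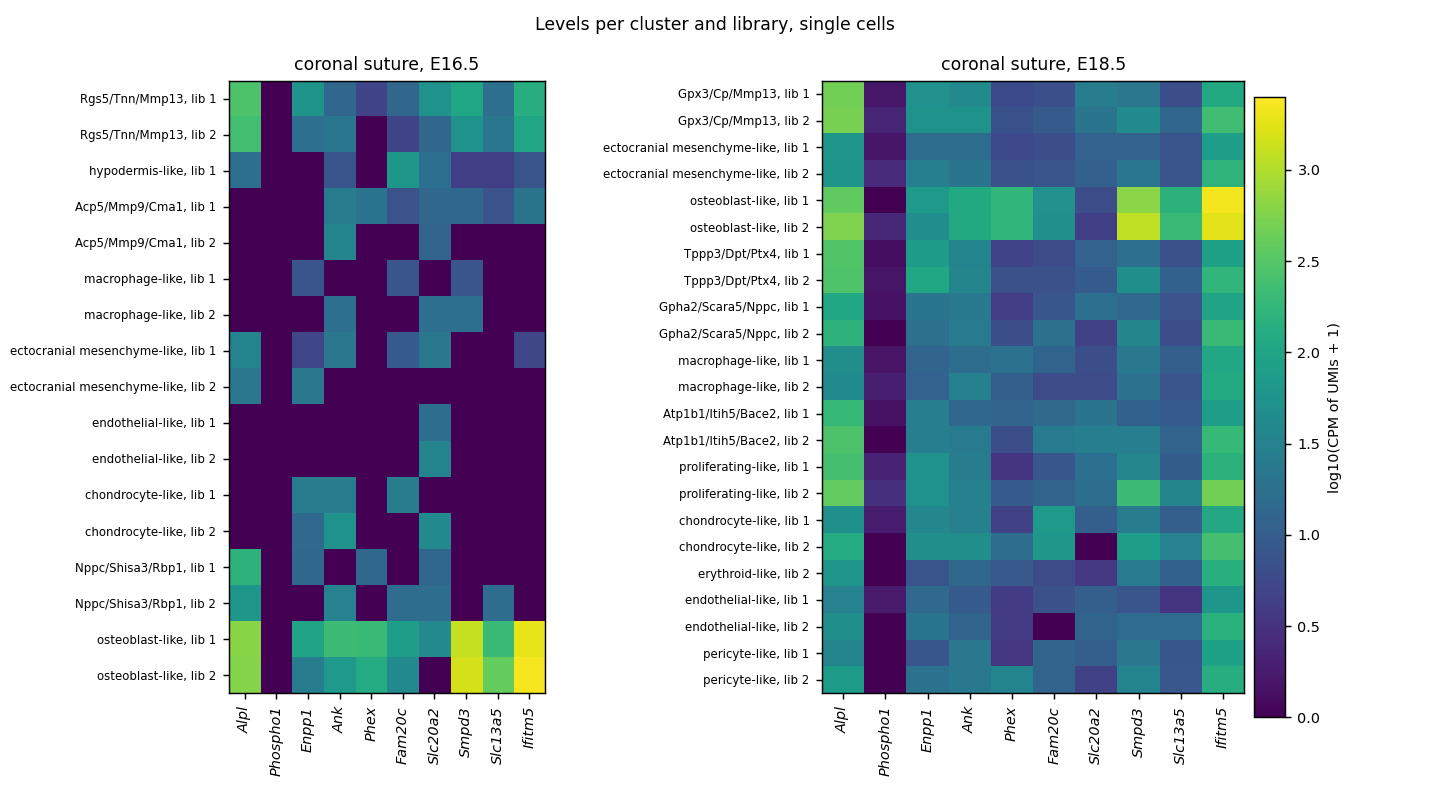
Level of each gene in the clusters of the coronal single-cell libraries, log10 of CPM of UMIs plus 1, with 1 row per cluster and library (lib) and unnamed clusters given by their 3 leading genes. The osteoblast-like rows are brightest for Ifitm5, Smpd3, Slc13a5 and Phex at both ages, while Alpl is as bright in the Gpx3 rows at E18.5.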

How the data were processed

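Laser-captured RNA of E16.5 and E18.5 skull sutures had been amplified, made into Nextera XT libraries and sequenced on a HiSeq 2500. Per the submitters' processing notes, the authors trimmed the reads with cutadapt, aligned them to mm10 with STAR 2.5.3a and counted read pairs per GENCODE vM22 gene with featureCounts 1.6.4, without strand and without pairs on exons of 2 genes, and they deposited raw counts. The deposited table of the authors' own log2 ratios between groups was not used. Single-cell values were deposited as UMI counts per barcode (10x chemistry v3 at E16.5, v2 at E18.5), with a genome build not given in the sources used here. How the second coronal libraries were made is likewise not given there.

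Of 55487 genes, the 19768 that reached 1 CPM in more than 10% of the first libraries entered the tests, made in edgeR 4.0.16 (R 4.3.3), with TMM scaling, quasi-likelihood tests and Benjamini-Hochberg adjustment over all of them at 0.05. The model for regions within embryos held the embryo as a block, which the litter label gives. SM and OF of an embryo correlated at a median of 0.0606 after removal of group means, against -0.0174 for other embryos (60 pairs, 16 above 0.1). The ages were compared without a block. TPM was computed from the counts and the full exon length, plots used log2 of CPM plus 0.5, and count ratios carry exact 95% intervals. Alternatives were DESeq2 1.42.0, limma-voom (limma 3.58.1), other scalings, no filter, separate fits, second libraries where there was one and left-out replicates. Cells with more than 800 genes were clustered with scanpy 1.11.5 (2000 variable genes without the 10 members, 13 components, 100 neighbours, resolution 0.8) after cells beyond 3 median absolute deviations had been left out. The test for regions was checked on 10 simulated tables with known changes, a number raised from 1 because the first table exceeded the limit set for false calls. The limit was then put on the mean of the 10, which kept to it. False calls made up a mean of 5.34% of calls, and 1.97% to 8.29% in single tables. There few genes changed, all upward in OF and with the same spread for every gene, whereas many real genes differed in both directions. The tables therefore do not give the share of false calls in these data. The test for ages was checked on 1 table.

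The 10 genes and all lists were chosen with earlier results of these data known. Named list genes were the 3 with the largest fold change per list among those called at both ages in the same direction, or fewer where fewer passed (2 of them are not reported here), and the most alike genes were the 3 with the highest correlation. First libraries held 7305627 to 34518477 counts.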

Additional observations from a re-analysis of the deposited data

Results flagged for a closer look

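Within the 20 groups of 5 embryos, 1 library stood apart from the other 4 in 22 of 200 gene and group pairs (11%), by a gap of more than 0.71 of the group's range on the scale of log2 of CPM plus 0.5. That limit gives about 1 in 20 for independent, normally distributed values. These pairs share libraries and some rest on near-zero counts, and no share over all genes was computed. The 11% therefore does not show an excess. In coronal FR at E18.5, replicate 2 was the high library for Alpl (788 CPM), Smpd3 (673 CPM), Ifitm5 (286 CPM) and Slc20a2 (55.3 CPM), and replicate 1 was the low one for Ank (30.8 CPM). The parietal front of the same embryo was the high one for Smpd3 (995 CPM). In frontal SM at E18.5, replicate 3 was low for Alpl (14.1 CPM), Enpp1 (9.04 CPM) and Fam20c (0.292 CPM), and replicate 4 was high for Phex (3.96 CPM) and, on 1 read, for Phospho1 (0.0809 CPM). In frontal SM at E16.5, replicate 1 was low for Fam20c (2.91 CPM) and Slc20a2 (28.6 CPM), replicate 4 for Alpl (32.9 CPM) and replicate 5 for Smpd3 (0.764 CPM), and in frontal FR replicate 4 was high for Phospho1 (4.37 CPM). The remaining high libraries were lambdoid SM at E18.5 for Enpp1 (replicate 4, 60.2 CPM) and, on 1 read, Phospho1 (replicate 5, 0.115 CPM), lambdoid PA at E18.5 for Slc13a5 (replicate 2, 531 CPM), sagittal SM at E16.5 for Slc13a5 (replicate 1, 5.71 CPM), sagittal PA at E18.5 for Ifitm5 (replicate 2, 450 CPM) and coronal SM at E16.5 for Fam20c (replicate 2, 1.45 CPM).

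The OF less SM difference differed between sutures by a test of the difference itself in edgeR, with p adjusted over all genes. At E16.5 it did so for Alpl (adjusted p = 8.45e-10), Enpp1 (3.71e-11), Ank (0.000619), Smpd3 (0.00117) and Slc13a5 (0.026). At E18.5 it did so for Alpl (3.47e-13), Enpp1 (1.14e-15), Ank (0.00455), Phex (0.00764) and Ifitm5 (0.00779). Each suture has its own embryos, a few of them from litters shared with another suture, and the parts of litter, depth and library set were not tested. The difference of Fam20c in the coronal suture changed with age by -2.33 on the log2 scale, and 7 of its 13 alternatives did not call it.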

How the results depend on the processing

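Of 4770 values of single genes recomputed under alternatives, 4523 kept their side of the threshold or, for single-cell CPM, moved by less than the SD of the 2 libraries. Another 16 single-cell CPM values moved by more, 144 lost a call and 86 gained one. Of the values called in the main fit 1 reversed, Fam20c in coronal FR between the ages, at -0.02 with the second coronal libraries. Reversals were counted only among called values. Those not called could change sign and still count as kept, such as Ank in coronal FR against SM at E16.5, from -0.33 to 0.2. For Alpl, Phospho1, Phex, Smpd3, Slc13a5 and Ifitm5, 1162 of 1164 OF against SM values were unaltered in call, at log2 differences of 1.21 to 10.31. This count includes Phospho1, which passed the filter only through its fronts, and is no support for it. The causes of the moves below were not tested. Of the 10 genes averaged at E16.5, 1 was lower in OF with DESeq2, median-ratio size factors and total counts, in place of 0. Without TMM scaling the median of all genes shifted by -0.112 at E16.5 and -0.102 at E18.5, and 36.9% and 38.9% of calls were higher in OF in place of 50.3% and 51.2%. Calls lower in OF over the 12 comparisons numbered 2 with separate fits (main 5). Age differences over the sutures numbered 2 with DESeq2 and 0 with the second libraries and without a filter (main 1), and suture differences at E18.5 numbered 3 with limma-voom (main 5). Between the coronal fronts at E16.5, 0 were called with separate fits, with the second libraries and without libraries over 40% mitochondrial (an alternative chosen after seeing the data), and 1 with limma-voom (main 2). Between the lambdoid fronts at E16.5, DESeq2 called 1 and limma-voom 0 (main 2), and between the coronal fronts at E18.5, DESeq2 and limma-voom called 2 each (main 6). Between the lambdoid fronts at E18.5, 1 was called with DESeq2, separate fits, no filter and without libraries over 40% mitochondrial (main 0). Between the ages, lower calls in SM numbered 5 with separate fits and 6 without a filter (main 3), higher calls in SM 2 with limma-voom (main 5), higher calls in fronts 13 with separate fits (main 8) and lower calls in fronts 2 with the second libraries (main 4).

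Without the replicate block for the embryo, 1 gene was called between the lambdoid fronts at E16.5 (main 2), and the other counts stayed within 1.5 times. With 1 replicate left out, the counts ran from 8 to 9 and from 9 to 9 (higher in OF, averaged, E16.5 and E18.5), 0 to 0 (lower, both ages), 88 to 91 and 3 to 6 (higher and lower over 12 comparisons), 0 to 0 and 0 to 1 (age differences, averaged and by suture), 4 to 5 and 3 to 8 (suture differences, E16.5 and E18.5), 1 to 2 and 2 to 6 (coronal fronts), 1 to 2 and 0 to 1 (lambdoid fronts), 3 to 4 and 0 to 4 (higher and lower at E18.5 in SM) and 6 to 8 and 2 to 6 (the same in fronts). DESeq2 was not run for suture differences, and separate fits give no averaged, age or suture difference. Phospho1 in SM was at 0 counts in 21 of 40 libraries, and at most 4 in any.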
